A study of Mus musculus with 15 samples.

Results

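PEA3 factors are a small branch of the ETS family of transcription factors, made up of Etv1, Etv4 and Etv5. ERK, the last kinase of the Ras, Raf and MEK cascade, raises their transcription, in part by lifting repression by the DNA-binding repressor capicua (Cic), and the ubiquitin ligase Cop1 removes the proteins. Phlda1, Ccnd1, Myc, Ier3 and Epha2 are other genes that ERK signalling can induce, and their products act in cell survival, the cell cycle, growth and adhesion. Etv5 is also made in the alveolar type 2 cells of the mouse lung, the surfactant-making cells from which K-Ras-driven lesions can arise. The 8 genes were described here by every probe set, a group of probes on the array for 1 transcript, whose symbol in the platform annotation is the gene's own. Of the 8 genes, 7 had such probe sets, 12 of the 45037 probe sets on the array that are not controls. Etv1 had none, because its 3 probe sets are listed for both Etv1 and Gm5454, a pseudogene on another chromosome, so no value could be given for it.

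All samples were cut by laser capture microdissection from frozen lung sections of K-RasG12V knock-in mice, 3 months after infection in vivo with an adenovirus carrying Cre, so the normal cells come from infected lungs of the same genotype. The allele also marks the cells that express the oncogene with a colour, and lesions of about 500 cells were taken. The arrays comprised 3 of hyperplastic lesions of the H1 subtype, 4 of hyperplastic lesions of the H2 subtype and 8 of normal lung cells. The labels state neither the rule that sorted lesions into the subtypes, nor the age of the mice, nor which samples came from 1 animal. P-values therefore measure only the spread between these samples, and are too small where samples of 1 group share an animal. Values are log2 signals as the authors deposited them, a difference of 1 is a doubling, ± after a difference is its standard error (SE), and the number of arrays limits every precision.

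Markers of lung cell types were set side by side to describe the captured tissue. The mean log2 signal of 9 alveolar type 2 markers per array lay between 7.96 and 9.38 in H1, between 8.97 and 10.05 in H2 and between 4.99 and 9.78 in normal cells. All 9 averaged above normal cells in H1 and in H2, by a median of 1.34 and 2.22, and limma called 1 of them in H2. At an unadjusted p under 0.05, 1 was higher in H1 and 7 were higher in H2. Of all genes, 4.23% in H1 and 21.4% in H2 reached that p in either direction. The mean of 10 endothelial markers lay between 4.35 and 4.90 in H1, 4.39 and 4.82 in H2, and 4.29 and 6.41 in normal cells, and limma called 0 of them in either subtype, with 2 in H1 and 4 in H2 lower at an unadjusted p under 0.05. Of 9 macrophage markers, 6 averaged above normal cells in H1 and 7 in H2, by a median over the list of 0.36 and 1.07, with 0 called by limma and 0 and 2 at an unadjusted p under 0.05. In H2 limma also called Cyp2f2 of the club list higher (1.57), where 3 of 6 club and ciliated markers averaged above normal cells (list median 0.03). Of 10 fibroblast and muscle markers, limma called Col1a2 higher (1.57) and Itga8 lower (-3.06) in H2. Of these 10, 3 averaged above normal cells in H2 (list median -0.076). Over all genes, limma called 2.89% higher and 0.495% lower in H2. The array means of the type 2, endothelial, type 1, macrophage, lymphocyte and fibroblast lists overlapped between each subtype and normal cells, and in the club and ciliated list Scgb1a1, Scgb3a2 and Foxj1 had group means below the median gene in every group. In bulk samples of this kind, a change in the number of cells of a type and a change in RNA per cell cannot be told apart. The standard deviation of the values within an array, called its spread here, was also uneven, at 1.42 ± 0.10 (SD, n = 3) in H1, 1.64 ± 0.12 (SD, n = 4) in H2 and 1.38 ± 0.18 (SD, n = 8) in normal cells. Probe sets at the 3′ and 5′ ends of control transcripts, whose difference bears on RNA integrity and amplification, were set beside the groups too, and their ranges overlapped between H2 and normal cells for both genes. The 3′ minus 5′ difference was -0.70 ± 0.60 in H1, -0.0028 ± 0.23 in H2 and -0.63 ± 0.62 in normal cells for Actb, and 2.54 ± 0.35, 3.32 ± 0.86 and 2.53 ± 0.59 in the same groups for Gapdh (SD).

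Phlda1, the pleckstrin homology-like protein that ERK induces and that acts in cell survival, was the member that separated both lesion subtypes from normal cells. Its log2 signal was 5.26, 6.12 and 5.13 in the H1 arrays, and 4.98, 6.36, 7.04 and 6.03 in the H2 arrays, against a lowest of 2.90, a median of 3.91 and a highest of 4.72 over the 8 normal arrays. Every lesion lay above every normal array, and lesions and normal cells were apart, in either direction, for 0.225% of all genes. All lesions together averaged 5.85 ± 0.75 (SD, n = 7) and normal cells 3.96 ± 0.63 (SD, n = 8). The difference of 1.89 ± 0.33, or 3.69-fold, passed the threshold (limma adjusted p = 0.0284 over 18193 genes), and Phlda1 was the 1 member of 7 called, where 0.291% of all genes were. It stood at rank 19 of all genes by p.

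By subtype, Phlda1 rose in H2, by 2.14 ± 0.39 or 4.41-fold (limma adjusted p = 0.011). It was again the 1 member of 7 called, where 3.38% of all genes were called in H2. With the Gapdh 3′ minus 5′ difference as a covariate, the H2 difference was 2.09 and no longer passed (adjusted p = 0.0654). In H1 it was 1.54 ± 0.43 above normal cells, a difference that did not pass (limma adjusted p = 0.997, unadjusted p = 0.00237), although the groups did not overlap and the gene stood at rank 38 of 18193. The groups of H1 and normal arrays were apart, in either direction, for 1.4% of all genes. The direct difference of H1 from H2 was -0.60, with a 95% interval from -1.62 to 0.42, and did not pass (adjusted p = 0.606). The call in all lesions was lost when any 1 of 6 arrays was left out. These were normal replicates 4 and 8, H1 replicate 3 and H2 replicates 5, 6 and 7, with limma adjusted p-values up to 0.0796. Over the leave-one-out fits the difference stayed between 1.69 and 2.03. In the fit over all probe sets, the call in all lesions was also lost without normal replicate 2 or normal replicate 5. In H2 it was lost without H2 replicate 6 (adjusted p = 0.0517). The shares over all genes moved as well, since the 615 genes called in H2 became between 119 and 1378, and the 53 in lesions between 8 and 238, with 1 array left out.

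**Figure D1:**
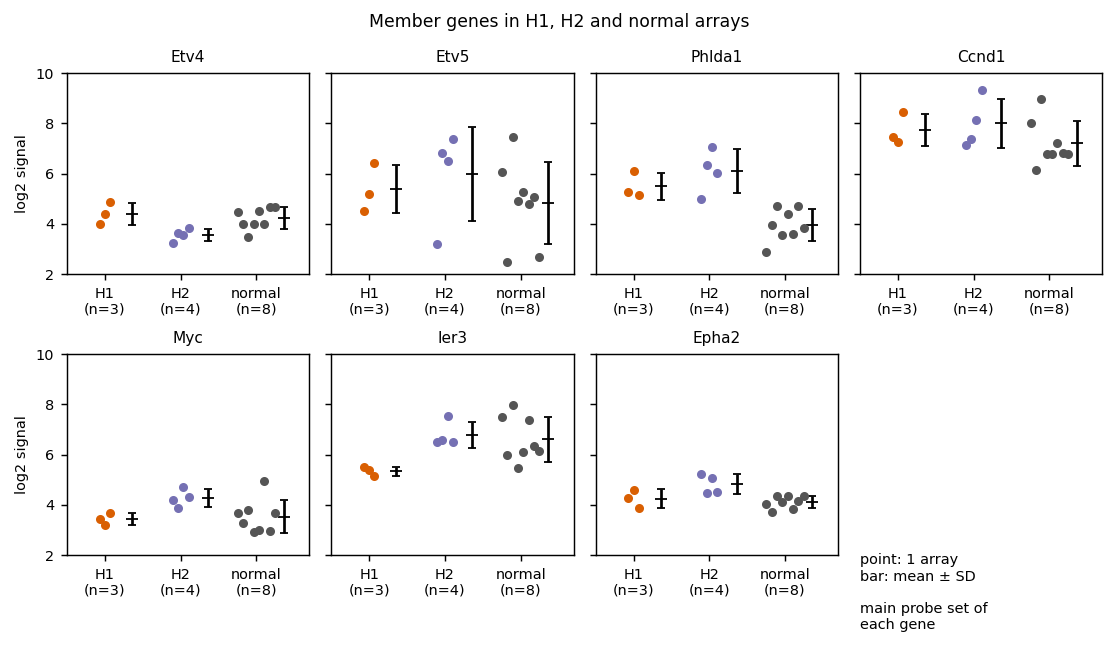
Log2 signal of the main probe set of each of the 7 measured members, with 1 point per array and bars for the mean ± SD in H1 (3 arrays), H2 (4 arrays) and normal cells (8 arrays). For Phlda1 the 7 lesion arrays, from 4.98 upward, lie above all normal arrays, which reach 4.72, while for Etv5 and Ccnd1 the 3 groups overlap.

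**Figure D2:**
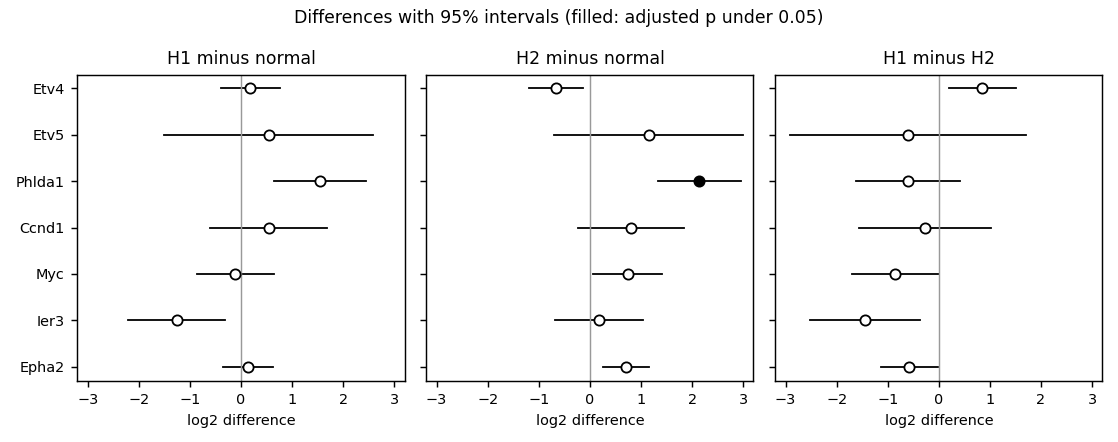
Log2 differences of the 7 members (points) with their 95% intervals (lines) for H1 minus normal, H2 minus normal and H1 minus H2, filled where the adjusted p is under 0.05. The 1 filled point is Phlda1 in H2, at 2.14, and no member is filled in H1 or between H1 and H2.

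The Phlda1 signal of single arrays was set beside their alveolar type 2 marker mean. Normal replicate 3 had a mean of 9.78 over the alveolar type 2 markers, above all 3 H1 arrays and above 2 of the 4 H2 arrays, and its Phlda1 signal was 4.72, the highest of the normal arrays and below every lesion. H1 replicate 2 had a marker mean of 7.96 and a Phlda1 signal of 5.26. Normal replicate 1, with a marker mean of 8.33, had the lowest Phlda1 signal, 2.90. H2 replicate 6 had both the highest marker mean of all arrays, 10.05, and the highest Phlda1 signal, 7.04. The part of cell content in the Phlda1 difference was not tested. With the array spread in the model as a covariate, the Phlda1 difference was 1.71 in all lesions (limma adjusted p = 0.0448) and 1.99 in H2 (adjusted p = 0.0676). In the fit over all probe sets with that covariate, Phlda1 was not called in all lesions. Its mean in normal cells was under 3.99, the median over the means of all probe sets, so its fold is a ratio to a dim signal.

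Etv5, the PEA3 factor of alveolar type 2 cells, ranged more widely than any other member and did not separate the groups. Its main probe set read 4.52, 5.20 and 6.41 in H1, and 3.21, 6.84, 6.51 and 7.38 in H2, against a lowest of 2.47, a median of 5.00 and a highest of 7.44 in normal cells. The groups overlapped from end to end, and the single brightest array was a normal one. Etv5 was 0.54 ± 0.97 higher in H1 and 1.15 ± 0.87 higher in H2 than in normal cells, neither past the threshold (limma adjusted p = 0.997 and 0.47), with 95% intervals from -1.51 to 2.59 and from -0.71 to 3.00. These intervals include no change as well as a rise of several fold.

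In normal cells, the arrays with the lowest and highest signals of the main Etv5 probe set were also those with the lowest and highest alveolar type 2 marker means. The lowest normal signals, 2.47 in replicate 2 and 2.67 in replicate 8, came with marker means of 4.99 and 6.53, the lowest of all arrays, and with the narrowest spreads, 1.14 and 1.20. The highest, 7.44 in normal replicate 3, came with a marker mean of 9.78. H2 replicate 1 went against this order, with an Etv5 signal of 3.21 at a marker mean of 8.97. So did normal replicate 6, with 4.79 at a marker mean of 8.40, where normal replicate 7 had 5.07 at 7.25. On another Etv5 probe set, 1450082_s_at, the highest normal array was replicate 4, at 6.23 with a marker mean of 7.70. The lowest there was normal replicate 7, at 3.71. Without the 2 normal arrays of narrowest spread, Etv5 was -0.22 from normal cells in H1, and with the spread as a covariate it was -1.19 in H2, neither past the threshold. With 1 array left out, the H1 difference lay between 0.024 (without H1 replicate 4) and 0.97 (without H1 replicate 2). The H2 difference then lay between 0.68 (without H2 replicate 7) and 2.07 (without H2 replicate 1), and none of these passed. The part of cell content and of array spread in the Etv5 values was not tested beyond this.

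**Figure D3:**
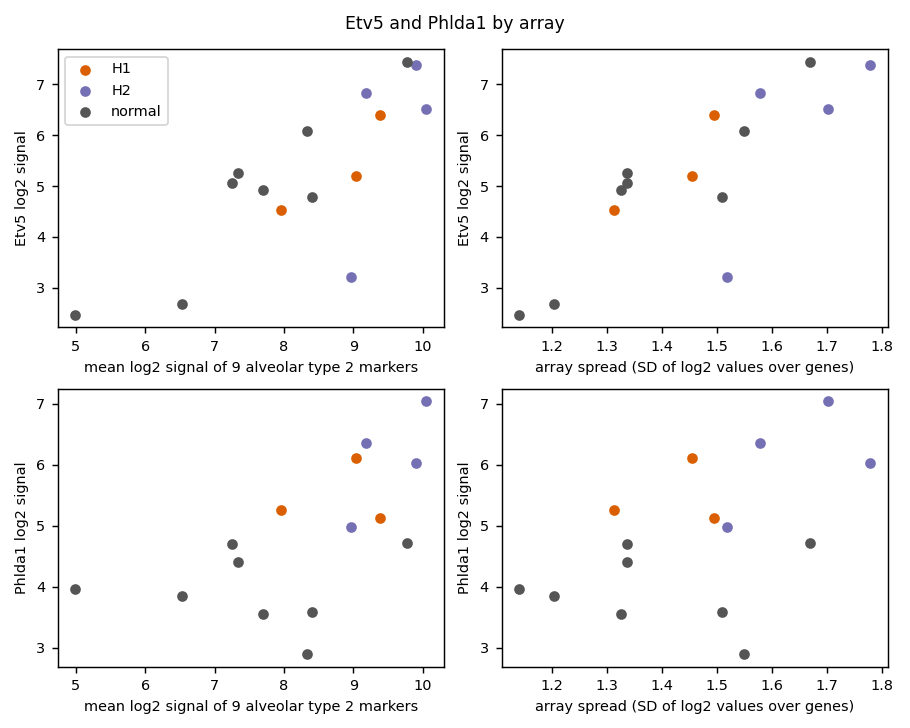
Log2 signals of Etv5 (upper panels) and Phlda1 (lower panels) on the 15 arrays, against the mean log2 signal of 9 alveolar type 2 markers (left) and the array spread (right), with 1 point per array for H1, H2 and normal cells. Etv5 is lowest in the 2 normal arrays with marker means of 4.99 and 6.53, whereas Phlda1 is at most 4.72 in normal arrays, a value reached by the one with a marker mean of 9.78.

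A second Etv5 probe set, 1450082_s_at, gave 4.08, 4.50 and 4.76 in H1 and 4.76, 5.27, 6.11 and 6.22 in H2, against a lowest of 3.71, a median of 4.57 and a highest of 6.23 in normal cells. It put H1 at -0.31 from normal cells, where the main probe set put it above them, and H2 0.83 ± 0.46 above them (limma adjusted p = 0.343 over all probe sets). The third, 1420998_at, stayed between 2.37 and 3.28 on every array, well under that same median of 3.99.

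Etv4, the founding PEA3 factor, was the 1 member of 7 with a higher mean in H1 than in H2. Its main probe set, 1443381_at, read 3.98, 4.38 and 4.86 in H1 and 3.23, 3.63, 3.56 and 3.83 in H2, against a lowest of 3.47, a median of 4.23 and a highest of 4.69 in normal cells. All H1 arrays lay above all H2 arrays, as the subtypes were apart, in either direction, for 3 of 7 members (Etv4, Myc and Ier3) and for 18.2% of all genes. The difference of H1 from H2 was 0.84 ± 0.31 and did not pass (limma adjusted p = 0.334, unadjusted p = 0.0148). H2 was at -0.66 ± 0.25 from normal cells, also without passing (adjusted p = 0.144, unadjusted p = 0.0172), although with array weights it did (-0.74, adjusted p = 0.0479). With array weights 2199 of all genes were called in H2, against 615 in the main fit. H1 differed from normal cells by 0.19 ± 0.27. The other probe set, 1423232_at, was lower still, with means of 3.39 in H1, 3.32 in H2 and 3.73 in normal cells, and its H1 to H2 difference was 0.07. All of these means lie near or under that median of 3.99, and H1 replicate 2 and normal replicates 2, 4 and 6 shared 1 value of the main probe set, 3.98.

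Cyclin D1 (Ccnd1), the D-type cyclin through which growth signals start the cell cycle, gave different answers from its 3 probe sets. The brightest, 1417420_at, read 7.48, 7.28 and 8.47 in H1 and 7.16, 7.38, 8.14 and 9.34 in H2, against a lowest of 6.16, a median of 6.82 and a highest of 8.99 in normal cells. The groups overlapped, and differences of 0.54 ± 0.54 in H1 and 0.80 ± 0.49 in H2 did not pass (limma adjusted p = 0.997 and 0.359).

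Probe set 1448698_at of Ccnd1 read 5.40, 6.41 and 6.45 in H1 and 6.80, 6.65, 6.80 and 6.65 in H2, against a lowest of 3.30, a median of 4.80 and a highest of 6.18 in normal cells. The H2 arrays lay within a narrow band above all normal arrays, while H1 replicate 2 fell within the normal range. In the fit over all 45037 probe sets it rose in H2, by 1.99 ± 0.39 or 3.98-fold (limma adjusted p = 0.0182). With that of Phlda1 it was one of 2 member probe sets called out of 12, where 2.04% of all probe sets were called. In H1 it was 1.36 ± 0.43 above normal cells (adjusted p = 0.999, unadjusted p = 0.00627), and in all lesions 1.72 ± 0.34 (adjusted p = 0.0501). The difference in all lesions passed in 8 of the 11 alternatives fitted over probe sets, and in 3 of 15 leave-one-out fits. The H2 call was lost without H2 replicate 6 (adjusted p = 0.0678) or H2 replicate 7 (adjusted p = 0.0586). With the array spread as a covariate its H2 difference was 1.01 (adjusted p = 0.158), and its difference in all lesions was 1.13 (adjusted p = 0.0472).

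The third Ccnd1 probe set, 1417419_at, was 0.28 ± 0.43 above normal cells in H1 and 1.00 ± 0.39 above them in H2 (limma adjusted p = 0.999 and 0.181), with 1 H2 array, replicate 5 at 6.85, well above the other H2 arrays, which reached 5.01. All 3 probe sets are listed with the same transcript accession, and which part of the transcript each one reads was not examined. Which probe set stands for the gene decides the gene-level call. With the mean of the 3 probe sets Ccnd1 was called in H2 (1.27, adjusted p = 0.0364). With the most variable probe set it was called in H2 (1.99, adjusted p = 0.0164) and in all lesions (1.72, adjusted p = 0.0389).

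**Figure D4:**
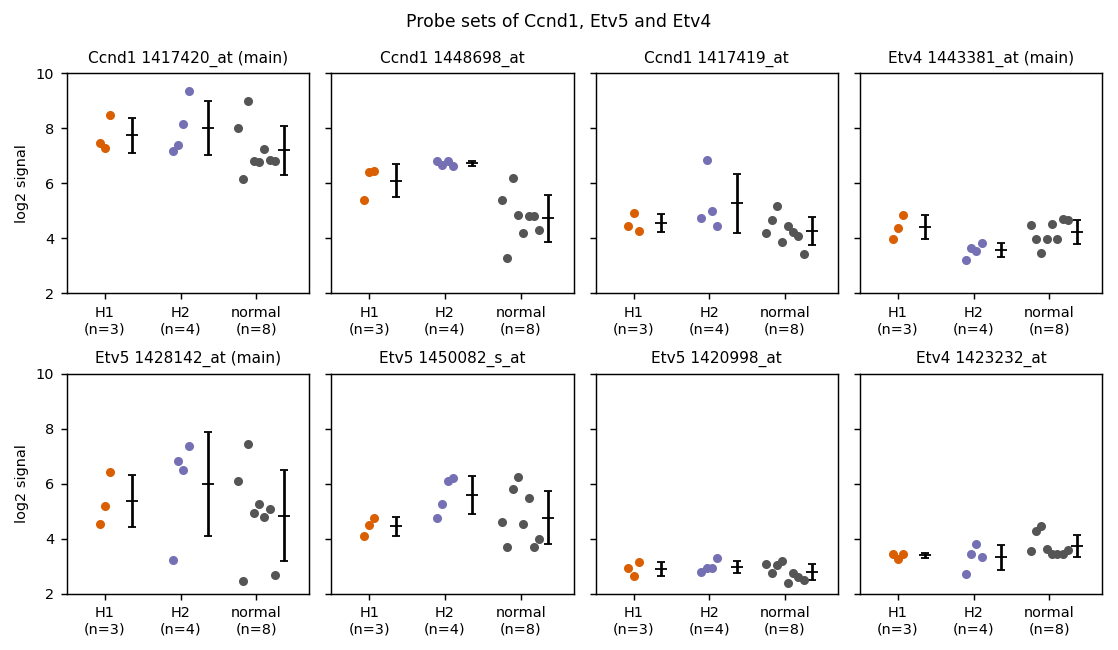
Log2 signal of the 3 probe sets of Ccnd1, the 3 of Etv5 and the 2 of Etv4, with 1 point per array and bars for the mean ± SD in H1, H2 and normal cells. Ccnd1 1448698_at shows H2 between 6.65 and 6.80 with normal cells at most 6.18, while the brightest Ccnd1 probe set overlaps between groups.

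Myc, the transcription factor that drives growth and ribosome production, was dim in all groups. It read 3.42, 3.18 and 3.67 in H1 and 4.19, 3.87, 4.72 and 4.30 in H2, against a lowest of 2.93, a median of 3.47 and a highest of 4.96 in normal cells. All H1 arrays lay below all H2 arrays, and both subtypes overlapped with normal cells. H2 was 0.74 ± 0.32 above normal cells (limma adjusted p = 0.2, unadjusted p = 0.036), and H1 was -0.85 ± 0.40 from H2 (adjusted p = 0.405). Normal replicate 6 alone reached 4.96, and without it the H2 difference was 0.94 and passed (adjusted p = 0.038). That was the 1 of 15 leave-one-out fits in which limma called Myc in H2, and 0 of the 13 alternatives that tested Myc called it. Over all genes, the 615 calls in H2 became 770 without normal replicate 6.

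Ier3, an early response gene whose product is a substrate of ERK and acts in survival, was lowest in H1. It read 5.49, 5.40 and 5.15 in H1 and 6.50, 6.59, 7.55 and 6.51 in H2, against a lowest of 5.46, a median of 6.25 and a highest of 7.97 in normal cells. Every H1 array lay below every H2 array, and 2 of the 3 lay below all normal arrays. H1 was -1.26 ± 0.45 from normal cells (limma adjusted p = 0.997, unadjusted p = 0.013) and -1.44 ± 0.51 from H2 (adjusted p = 0.333, unadjusted p = 0.012), so neither passed over all genes. H2 differed from normal cells by 0.18 ± 0.41, with a 95% interval from -0.69 to 1.04. Of the 7 members, Ier3 was the 1 whose H1 difference from normal cells was below 0 at an unadjusted p under 0.05, where 2.39% of all genes were.

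Epha2, a receptor tyrosine kinase that binds ephrin-A ligands and whose gene Raf and MEK activity can induce, was higher in each H2 array than in any normal array. It read 4.26, 4.61 and 3.86 in H1 and 5.22, 4.46, 5.09 and 4.52 in H2, against a lowest of 3.70, a median of 4.15 and a highest of 4.36 in normal cells. H2 and normal arrays were apart, in either direction, for 3.79% of all genes and for 2 of 7 members, Phlda1 and Epha2. The H2 difference of 0.71 ± 0.21 did not pass (limma adjusted p = 0.073, unadjusted p = 0.00379), and passed with arrays centred on their medians (0.79, adjusted p = 0.0425) and with array weights (0.69, adjusted p = 0.0441). Over all genes, the 615 calls in H2 became 778 with arrays centred and 2199 with array weights. H1 was 0.13 ± 0.23 above normal cells (adjusted p = 0.997).

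PEA3 and other ETS proteins recognise DNA around the core GGAA, so the stretches before the gene starts of members were searched for it. The RefSeq promoter table (GRCm38.p6) held Etv5, Ier3 and Epha2. It had no entry for Etv4, Phlda1, Ccnd1 and Myc, so those genes were not searched. The 250 bases before each start are shown 5′ to 3′ on the gene's strand, with GGAA, or TTCC where the core is on the other strand, in capitals.
Etv5 (chr16:22439571-22439820, minus strand): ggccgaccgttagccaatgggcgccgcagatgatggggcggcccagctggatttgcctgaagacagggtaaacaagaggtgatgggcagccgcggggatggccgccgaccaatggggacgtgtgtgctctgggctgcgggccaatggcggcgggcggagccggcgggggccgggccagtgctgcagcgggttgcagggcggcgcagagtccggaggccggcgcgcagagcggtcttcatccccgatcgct
Ier3 (chr17:35821463-35821712, plus strand): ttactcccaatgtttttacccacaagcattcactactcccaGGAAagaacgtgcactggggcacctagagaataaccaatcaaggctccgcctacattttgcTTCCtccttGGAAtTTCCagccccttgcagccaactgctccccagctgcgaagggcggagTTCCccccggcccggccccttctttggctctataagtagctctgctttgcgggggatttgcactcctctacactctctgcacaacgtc
Epha2 (chr4:141300971-141301220, plus strand): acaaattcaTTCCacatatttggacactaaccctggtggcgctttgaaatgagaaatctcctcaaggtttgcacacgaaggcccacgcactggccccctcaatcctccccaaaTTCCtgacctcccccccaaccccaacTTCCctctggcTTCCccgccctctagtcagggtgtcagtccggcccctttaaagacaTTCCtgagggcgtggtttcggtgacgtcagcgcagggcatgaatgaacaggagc
The Etv5 stretch held 0 cores, and the Ier3 and Epha2 stretches held 5 each. Over 32851 mouse promoters of the same length, 93.4% held at least 1 core, the median was 3, and 18% held 5 or more. The longer ETS site CCGGAAGT, present in 2.88% of promoters on either strand, and the AP-1 site TGACTCA, present in 4.46%, matched none of the 3. Epha2 held 1 copy of TGACGTCA, a site of CREB and related factors that 1.55% of promoters hold. The longer ETS site contains the GGAA core. A match is a description of letters, and binding was not measured.

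Set side by side, the 7 members had a median difference of 0.19 in H1 and 0.74 in H2 against normal cells, with all genes at -0.05 and -0.04. Both comparisons share the 8 normal arrays. At an unadjusted p under 0.05 there were 2 of 7 members in H1 (Phlda1 higher, Ier3 lower), where 4.23% of all genes reached it. In H2 there were 4 (Phlda1, Epha2 and Myc higher, Etv4 lower), where 21.4% of all genes did. Between H1 and H2, limma called 0 members (0.0055% of all genes), with 3 at an unadjusted p under 0.05 (Etv4, Ier3 and Epha2), where 12.3% of all genes were. In H1 against normal cells, limma also called 0 members (0.011% of all genes).

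Among other genes of the ERK response, 27 feedback and early targets were listed and 26 measured. In H2, limma called 6 of them higher and 0 lower, where 2.89% and 0.495% of all genes were. They included the ERK phosphatase Dusp6, at 2.32 ± 0.52 (adjusted p = 0.0249), and the Ras pathway inhibitors Spry2 (2.96, adjusted p = 0.00661), Spred1 (2.69, adjusted p = 0.0098) and Spred2 (1.30, adjusted p = 0.0219). All 8 probe sets of Spred1 were above 0, but the second of Spry2 was at 0.12, and 3 of 5 were above 0 for Spred2. The called genes not named here did not pass when adjusted over all probe sets (limma adjusted p = 0.0501 and 0.0555). The second of these also had a probe set at -0.30. In H1, limma called 0 of the 26, with 3 higher at an unadjusted p under 0.05, namely Spred1 at 1.88, Spry2 at 1.78 and Dusp6 at 1.61 (adjusted p = 0.997 each), where 1.85% of all genes were. Between H1 and H2, limma called 0 of them, with 1 at an unadjusted p under 0.05 on the H1 side and 3 on the H2 side, where 4.9% and 7.41% of all genes were. The median of the list was 0.11 in H1 and 0.43 in H2.

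Of 21 other ETS factors, limma called 3 higher in H2 and 0 lower, against 2.89% and 0.495% of all genes. Etv3, an ETS repressor, rose by 1.49 ± 0.21 (limma adjusted p = 0.00361), although its 3 other probe sets were between -0.55 and -0.01. Elf5, an epithelial ETS factor, rose by 1.82 ± 0.29 (adjusted p = 0.00586), with its second probe set at 0.22 and a mean in normal cells (3.30) below the median probe set. Ehf, another epithelial member, rose by 1.51 ± 0.38 (adjusted p = 0.0422), and 2 of its 4 probe sets were above 0. Adjusted over all probe sets, this main probe set of Ehf did not pass (adjusted p = 0.0519), while another did (2.68, adjusted p = 0.0205). In H1, limma called 0 of the 21, and 0 had an unadjusted p under 0.05. Between H1 and H2, limma again called 0, with 6 lower in H1 at an unadjusted p under 0.05 (7.41% of all genes), among them Etv3 (-1.04), Elf5 (-1.25) and Ehf (-1.27). The median of the list was -0.04 in H1 and 0.09 in H2.

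The next lists are likewise read against the 2.89% of all genes called higher and 0.495% called lower in H2. Of 8 regulators of PEA3 factors, which include Cic and the Cop1 ligase complex, 1 was higher in H2, the scaffold protein Cul4a at 2.02 ± 0.53 (limma adjusted p = 0.0497, and 0.0598 over all probe sets). Cop1 itself was at 1.01 ± 0.43 in H2 (adjusted p = 0.187). Of 15 cyclins and members of the Myc network, 1 was higher, Mga, a partner of Max, at 1.10 ± 0.29 (adjusted p = 0.0462, and 0.0579 over all probe sets), with 2 of its 5 probe sets above 0. Of 17 measured Eph receptors and ephrins, 1 fell in H2, Epha5 at -1.38 ± 0.32 (adjusted p = 0.0319), where its mean was 3.69, below the median probe set, against 5.07 in normal cells. Its 3 other probe sets lay between -0.77 and 0.10. In the same comparison limma called 0 of the 3 relatives of Phlda1 and Ier3, with 0 at an unadjusted p under 0.05. In H1 limma called 0 genes of these 4 lists, where 1 Eph gene was higher and 2 Eph or ephrin genes were lower at an unadjusted p under 0.05 (2.39% of all genes were lower).

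The genes whose pattern over the 15 arrays was most like that of a member were found by Pearson's r among 8591 genes above the median level. The 15 arrays share their groups and differ in spread, and such values also reflect both. For Phlda1 they were Ddit4 (r = 0.89), a stress-induced inhibitor of the growth kinase mTOR, and Lcor (0.88). For Etv5 they were Dynlt3 and Pdia3 (0.96 each), the second an enzyme of protein folding in the endoplasmic reticulum. For Etv4 they were Slc38a9 (0.88) and Phf7 (0.87), for Ccnd1 Bex3 (0.93) and Puf60 (0.92), and for Myc Spg20 (0.88) and Nudt18 (0.87). For Ier3 they were Ldb1 (0.91) and Dnajb5 (0.87), and for Epha2 Mrps25 (0.85) and Zkscan7 (0.83).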

How the data were processed

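Affymetrix arrays of RNA purified with PicoPure and amplified with WT-Ovation One-Direct were used, per the labels' protocols. The deposited values are log2 intensities that the authors made with affy and RMA, per the submitters' processing notes. No source used here names a genome build or tool versions.

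The 8 members and the gene lists were chosen with earlier results of these data known. Of 45101 probe sets, 64 controls were left out, 34945 carried 1 symbol, 932 several and 9160 none. Each of 18193 genes was represented by its probe set of highest mean over 15 arrays. Models were fitted with limma 3.58.1 in R 4.3.3, over all genes and over all 45037 probe sets, with Benjamini-Hochberg adjustment and a threshold of 0.05. One model held H1, H2 and normal, the other lesions and normal. The text names all members, up to 4 genes of lowest p in each list and comparison, and the 2 genes of highest r for each member. The procedure was tested on simulated data with independent errors for each gene and array. Those data held no uneven array spread and no shared animals, so the test does not show how calls behave under either. The 14 alternative settings and 15 leave-one-out fits included 2 chosen after seeing the data, the Actb and Gapdh 3′ to 5′ differences as covariates.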

Additional observations from a re-analysis of the deposited data

Results flagged for a closer look

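In normal cells, Myc in replicate 6 stood far from the other 7 arrays, at 4.96 with the nearest at 3.79. In H2, Ier3 in replicate 6 stood far from the other 3 arrays, at 7.55 with the nearest at 6.59. These were 2 of 24 checks for a single distant array, and chance alone marks about 1 in 20 groups.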

How the results depend on the processing

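In H1 against normal cells and in H1 against H2, limma called 0 members in all 14 alternatives and all 15 leave-one-out fits. In the fits over genes Phlda1 kept its direction throughout, and in H2 it was called in 12 of 14 alternatives and 14 of 15 leave-one-out fits. The exceptions among the alternatives were the array spread (1.99, limma adjusted p = 0.0676) and the Gapdh difference (2.09, adjusted p = 0.0654) as covariates. In all lesions it was called in 12 of 14 and 9 of 15, and not without the 2 normal arrays of narrowest spread (1.87, adjusted p = 0.0636) or with the Gapdh covariate (1.80, adjusted p = 0.0669). In the fits over all probe sets, the Phlda1 call in H2 was also lost with the Actb covariate and with the replicate block. The Phlda1 call in all lesions was lost there with the spread covariate.

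In H2, 1 member was called. The count was 2 with arrays centred, with the mean of probe sets and with the most variable probe set. It was 3 with array weights, 0 with the spread or Gapdh covariate, and between 0 and 2 with 1 array left out. Over all 18193 genes, 615 were called in H2 in the main fit. That became 778 with arrays centred, 475 with the mean of probe sets and 634 with the most variable probe set. It became 2199 with array weights, 155 with the spread covariate and 49 with the Gapdh covariate. Of member probe sets 2 were called in H2, and 0 with the replicate block or with the spread, Actb or Gapdh covariate, and between 0 and 3 with 1 array left out. In lesions, 1 member was called, 2 with the most variable probe set, 0 without the 2 narrow normal arrays or with Gapdh, and 0 to 1 with 1 array left out. Over all genes, the 53 calls in lesions became 69 with the most variable probe set, 36 without the 2 narrow normal arrays and 21 with Gapdh. Of probe sets 1 was called in lesions, 2 with centring, repeated quantile normalization, the filter on dim probes, array weights, the replicate block, only the arrays compared or Actb, 0 without the 2 narrow arrays or with Gapdh, and 0 to 2 with 1 array left out. With the spread covariate the 1 member probe set called in lesions was Ccnd1 1448698_at (limma adjusted p = 0.0472), in place of that of Phlda1. Over all genes and the 14 alternatives, the 615 calls in H2 became between 39 and 2199, and the 53 in lesions between 21 and 222. With 1 array left out they became between 119 (without H2 replicate 7) and 1378 (without normal replicate 3) in H2, and between 8 (without H2 replicate 5) and 238 (without H1 replicate 2) in lesions.

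Whether samples with the same replicate number are paired is not stated in the labels. Correlations of same-numbered deviations lay between -0.14 and 0.38 over 7 pairs, with 4 of them over 0.1. Of the 7, 1 matched best with its own number. Such correlations also carry array spread and cell content, so they cannot decide whether samples share an animal. With the replicate block, Phlda1 was 2.20 in H2 (adjusted p = 0.0471), 39 genes and 0 member probe sets were called in H2, and signs turned for Myc (0.089), Etv5 1420998_at (-0.10) and Ccnd1 1417419_at (-0.022) in H1, Ier3 (-0.034) in H2 and Etv4 1423232_at (-0.57) between H1 and H2.

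The sign of an uncalled difference turned 29 times in the alternatives and 10 times in leave-one-out fits, and 0 of these were called. The spread covariate did so in H2 for Etv5 (-1.19, and -0.12 and -0.042 for its other probe sets), Ccnd1 (-0.52) and Ier3 (-0.73). Between H1 and H2 it did so for Etv5 (1.40, and 0.12 for 1420998_at) and Ccnd1 (0.87, and 0.21 for 1448698_at), and in lesions for Etv5 (-0.35 and -0.32). Ier3 in H2 also turned with repeated quantile normalization (-0.27), Actb (-0.26) and Gapdh (-0.090), and Etv5 in H2 with Gapdh (-0.15). Between H1 and H2, Etv5 turned with Actb (0.23) and Gapdh (0.66), Ccnd1 with repeated quantile normalization (0.46), Actb (0.32) and Gapdh (0.46), and Etv4 1423232_at with array weights (-0.067) and Actb (-0.019). In H1, Etv4 turned with the mean of probe sets (-0.077) and Etv5 without the 2 narrow normal arrays (-0.22). Leaving out 1 array gave ranges across 0 in H1 for Myc (-0.23 to 0.091), Epha2 (-0.051 to 0.32), Etv4 (-0.041 to 0.40) and Etv5 1420998_at (-0.0073 to 0.24), in H2 for Ier3 (-0.074 to 0.37), and between H1 and H2 for Ccnd1 (-0.63 to 0.18), Etv4 1423232_at (-0.13 to 0.23) and Etv5 1420998_at (-0.20 to 0.047). The causes were not tested. Dim probe sets and the 3 and 4 arrays per subtype limit these differences.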

Other observations

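The 3 probe sets listed for both Etv1, the remaining PEA3 factor, and the pseudogene Gm5454 cannot be assigned to either. One of them, 1422607_at, averaged 3.81 ± 0.33 in H1 (SD, n = 3), 5.20 ± 0.51 in H2 (SD, n = 4) and 4.08 ± 0.43 in normal cells (SD, n = 8). H2 was 1.12 ± 0.27 above normal cells (limma adjusted p = 0.0428 over all probe sets). H1 was at -1.39 from H2 without passing (adjusted p = 0.28). The arrays of the subtypes did not overlap, and the subtypes were apart, in either direction, for 18.2% of all genes. Probe set 1450684_at was 0.95 above normal cells in H2 (adjusted p = 0.137), and 1445314_at was at -0.02.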
